A study of Triticum monococcum with 54 samples.

Results

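Late in grain filling, einkorn grain from plants that had received neither nitrogen (N) nor sulfur (S) was compared with grain from fully supplied plants, both at 600 °Cd. Degree days (°Cd) sum the daily temperature from anthesis, when the flower opens. The comparison used the 6 libraries labelled with these treatments at this stage, of 54 in the series, and they were chosen by label alone. N-S- plants had a nutrient solution free of both elements (3 libraries), and N+S+ plants had 6 mM N with 2 mM S (3 libraries). Both groups were Triticum monococcum, a diploid wheat, grown from one accession in a greenhouse on a perlite and sand mixture. They had only demineralized water until anthesis, and the solutions ran from 200 to 700 °Cd. All 6 libraries were sequenced on lane 5. They were made from polyadenylated RNA of whole grain, so endosperm, embryo and outer layers were measured together. Fewer cells of a type and less RNA per cell cannot be told apart in such samples. None of the 32047 gene identifiers is paired with a name in the files. Genes therefore appear by identifier, and the tissue label could not be checked against marker genes.

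As background, the starchy endosperm of a filling wheat grain makes starch and storage proteins from a small set of very abundant transcripts. Storage proteins are the main store of grain N, and their classes differ in how much cysteine and methionine, the S-containing amino acids, they hold. Supply of N sets how much storage protein a wheat grain makes, and supply of S shifts the balance between its S-rich and S-poor classes. None of the genes below can be placed in these classes from the files.

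Depth ran over 2331217 to 2741109 counts for the N-S- libraries and 2543987 to 3456507 counts for the N+S+ libraries. Replicates differed among themselves about as much as the treatments did. Across the genes tested, log2 levels correlated at 0.952 to 0.968 between N-S- replicates and at 0.898 to 0.935 between N+S+ replicates, and N-S- with N+S+ libraries at 0.908 to 0.957. N+S+ replicate 2 stood furthest from the rest, with no correlation above 0.924 and 16215 genes detected against 17707 to 18523 in the other 5 libraries. The labels call the replicates biological without saying which plants each came from, so p-values measure the spread between these samples.

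Late N-S- grain differed from N+S+ grain in 22 of 12344 genes tested (0.178%; edgeR quasi-likelihood test, Benjamini-Hochberg adjusted p under 0.05). In 13 of them N-S- grain was higher (0.105% of genes tested) and in 9 lower (0.0729%). Of the 22, 20 differed by at least 2-fold, 11 of them higher and 9 lower. Higher genes had log2 fold changes of 0.89 to 5.74 (median 1.36), and lower genes of -1.61 to -1.21 (median -1.38). Over all tested genes the median was -0.01, and 97.2% differed by less than 2-fold. In each of the 22 the libraries of the 2 groups did not overlap, as was so for 10.8% of all tested genes. A further 18 genes, 10 higher and 8 lower, had an adjusted p between 0.05 and 0.1, and 662 had an unadjusted p under 0.05. The count rested on single libraries. It was 1 without N-S- replicate 3, 4 without N+S+ replicate 1, 5 without N+S+ replicate 2 and 64 without N+S+ replicate 3, and 21 or 18 without N-S- replicate 1 or 2. Of those 21 and 18 genes, only 14 and 11 were among the 22.

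The steepest rises and falls were several-fold. TmLoc010460 stood at 16.6, 28.0 and 28.2 normalized CPM (counts per 1000000 counts, with the 6 libraries scaled together) in N-S- replicates 1, 2 and 3. In N+S+ grain it stood at 4.28, 0.349 and 4.04 CPM. All N-S- libraries lay well above all N+S+ libraries, and N+S+ replicate 2 had the least. In N-S- grain the gene was higher by 8.30-fold, a log2 fold change of 3.05 ± 0.51 (SE; edgeR adjusted p = 0.0257). TmLoc042692 had 74.1, 142.3 and 150.3 CPM in N-S- grain, against 27.0, 17.1 and 14.4 CPM in N+S+ grain. It was 6.36-fold higher (2.67 ± 0.29, edgeR adjusted p = 0.00205), and N-S- replicate 1 lay about midway between the means of the groups. It was the gene with the lowest adjusted p and the one call left without N-S- replicate 3 (edgeR adjusted p = 0.0216).

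TmLoc001563 fell to 1999, 1590 and 988 CPM in N-S- grain, against 4429, 5721 and 3830 CPM in N+S+ grain. Each N-S- library lay under the lowest N+S+ library, a 3.06-fold difference (-1.61 ± 0.24, edgeR adjusted p = 0.0137). TmLoc035491 had 2823, 1438 and 1066 CPM in N-S- grain, against 4898, 6110 and 4666 CPM in N+S+ grain. It was 2.94-fold lower (-1.56 ± 0.28, edgeR adjusted p = 0.0422), and N-S- replicate 1 was again the library nearest the other group. This call was also lost with DESeq2 (adjusted p = 0.0871) and in an edgeR fit to 30 libraries (adjusted p = 0.0524). The calls did not all stand when a library was left out. For TmLoc010460 the edgeR adjusted p was 0.0869, 0.329 and 0.173 without N-S- replicate 2, N-S- replicate 3 and N+S+ replicate 1. For TmLoc001563 it was 0.122, 0.129 and 0.0584 without N-S- replicate 3, N+S+ replicate 1 and N+S+ replicate 2. For TmLoc035491 it was 0.143 and 0.329 without N-S- replicates 2 and 3, and 0.278 and 0.139 without N+S+ replicates 1 and 2. The fold changes of these 3 genes kept their sign each time, at 2.53 to 3.46, -1.84 to -1.37 and -2.05 to -1.29 on the log2 scale.

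**Figure D1:**
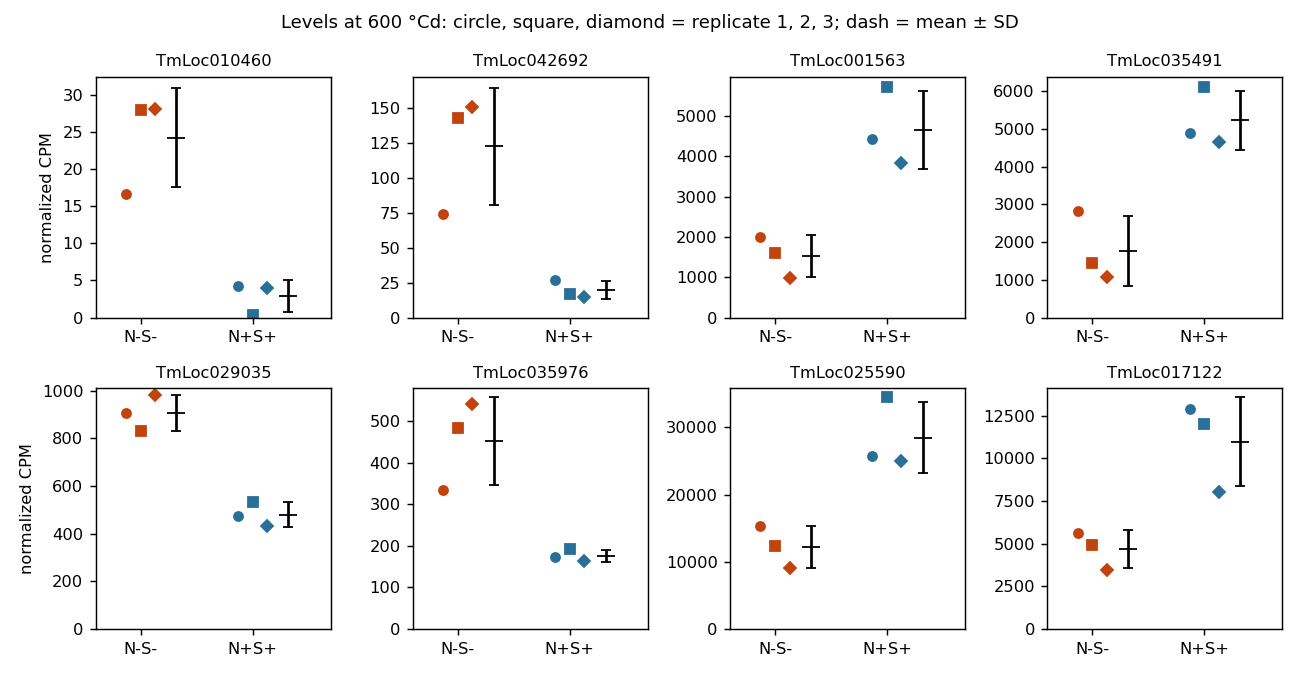
Normalized CPM (vertical axes, linear, from 0) of the 8 named genes in N-S- and N+S+ grain at 600 °Cd, with replicates 1, 2 and 3 as circle, square and diamond and the mean ± SD (n = 3) beside them. In every panel the 3 N-S- libraries lie on one side of the 3 N+S+ libraries, for TmLoc042692 at 74.1 to 150.3 CPM against 14.4 to 27.0 CPM.

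Ranked by the difference in level, other genes led. TmLoc029035 had the widest rise, at 906 ± 74.6 CPM in N-S- and 480 ± 51.1 CPM in N+S+ grain (SD, n = 3 each), 1.89-fold higher (0.92 ± 0.16 on the log2 scale, edgeR adjusted p = 0.0289). Its 3 N-S- libraries lay between 832 and 981 CPM and its N+S+ libraries between 431 and 533 CPM. TmLoc035976 followed, at 453 ± 106 CPM in N-S- and 176 ± 14.6 CPM in N+S+ grain (SD, n = 3 each), 2.58-fold higher (1.36 ± 0.19, edgeR adjusted p = 0.0137). TmLoc025590 had the widest fall, with 15325, 12302 and 8999 CPM in N-S- grain against 25794, 34513 and 24986 CPM in N+S+ grain. It was 2.33-fold lower (-1.22 ± 0.22, edgeR adjusted p = 0.0422). TmLoc017122 was 2.35-fold lower (-1.23 ± 0.23, edgeR adjusted p = 0.0422), at 4679 ± 1101 CPM in N-S- and 10988 ± 2610 CPM in N+S+ grain (SD, n = 3 each). N-S- replicate 3 was the lowest library for both falling genes. Without it the edgeR adjusted p was 0.439 for both, 0.329 for TmLoc029035 and 0.122 for TmLoc035976. Without N+S+ replicate 1 it was 0.199, 0.344, 0.227 and 0.129 for TmLoc025590, TmLoc017122, TmLoc029035 and TmLoc035976. Without N+S+ replicate 2 it was 0.194, 0.162 and 0.0623 for TmLoc025590, TmLoc017122 and TmLoc029035. Without N-S- replicate 2 it was 0.0928 and 0.0869 for TmLoc025590 and TmLoc017122, and without N-S- replicate 1 it was 0.0858 for TmLoc029035.

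One call lay below the 5 CPM set for naming and was picked out after its values were seen. TmLoc029593 had 13, 20 and 38 counts in the N-S- replicates and 1, 0 and 0 in the N+S+ replicates (edgeR adjusted p = 0.0205). The ratio of summed counts, scaled for library size, was 75.3, with an exact 95% interval of 13.1 to 3016 that covers counting error only. Its fitted log2 fold change, the highest of the 22, depends on how 0 counts are treated.

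The lower genes were mostly short and abundant. The median over all tested genes was 18.6 CPM and 2077 bases. The 13 higher genes had a median level of 70.9 CPM over the 6 libraries, reaching 693 CPM at most, and a median length of 2373 bases. The 9 lower genes had a median of 3093 CPM, reaching 20320 CPM, and a median length of 519 bases. Of the lower genes 8 were under 1000 bases long, as was 1 of the higher genes and 21.3% of all tested genes. By level, the 19 genes at 5000 CPM or more had a median log2 fold change of -0.48, with 15 of the 19 below 0. Level was the mean over the same 6 libraries, so a gene could pass this limit through its level in N+S+ grain alone. Most of these 19 genes are also among the dominant genes described below, so this median is not a separate result. The 144 genes from 500 to 5000 CPM had a median of 0.00, the 2635 genes from 50 to 500 CPM of -0.01 and the 8395 genes from 5 to 50 CPM of -0.02. Below 5 CPM the 1151 genes tested had a median of 0.05. CPM is not corrected for length, so the levels here rank genes by their share of reads and not by transcript number.

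**Figure D2:**
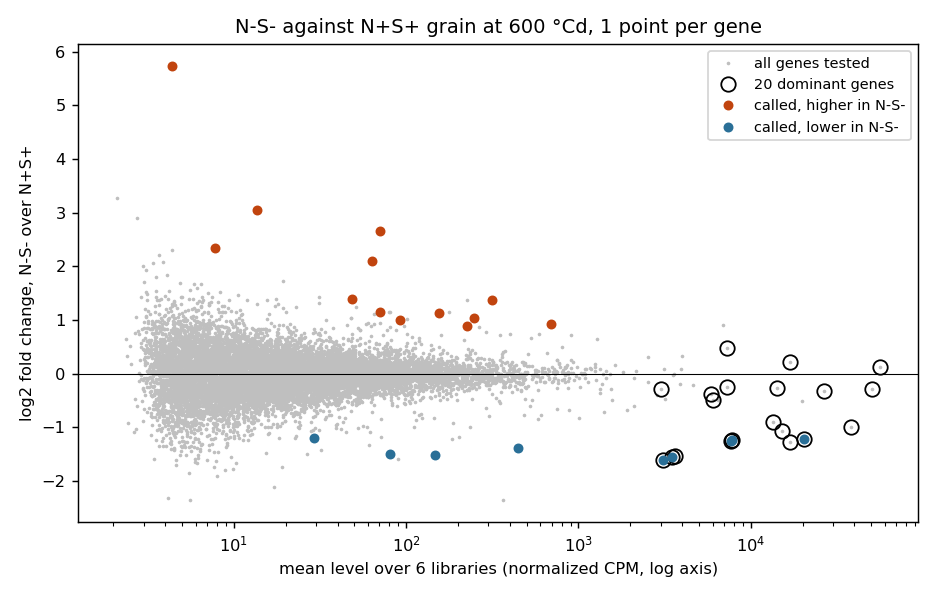
Log2 fold change of N-S- over N+S+ grain at 600 °Cd (vertical axis) against the mean level over the 6 libraries in normalized CPM (horizontal log axis), 1 point for each of the 12344 genes tested. The 13 called higher genes lie at up to 693 CPM, and 5 of the 9 called lower genes belong to the 20 dominant genes, which are circled.

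Much of the fall lay in transcripts that dominate the grain RNA. The 20 genes with the highest share of counts in N-S- and N+S+ grain at 300, 400 and 500 °Cd, which no library of 600 °Cd helped to choose, took 29.5%, 29.0% and 26.3% of all counts in N-S- replicates 1, 2 and 3. In the N+S+ libraries they took 36.0%, 37.9% and 31.7%. The ranking averaged over both groups, so a gene could enter the list through its level in N+S+ grain alone. The list is therefore not neutral between the groups, and its shares and calls describe these genes only. The groups did not overlap. The mean was 28.3% ± 1.73 in N-S- and 35.2% ± 3.16 in N+S+ libraries (SD, n = 3 each), a difference of -6.91 percentage points. A two-sided exact permutation test gave p = 0.1, the smallest that 3 against 3 libraries allow. The 10 genes with the highest share took 21.8% ± 1.34 in N-S- and 27.1% ± 2.41 in N+S+ libraries (SD, n = 3 each).

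Within the 20, which levels in N+S+ grain helped to choose, 5 genes were called lower and 0 higher (edgeR), against 0.0729% and 0.105% of all tested genes. The 5 were TmLoc001563, TmLoc035491, TmLoc025590, TmLoc017122 and TmLoc037807. The count was 0 without N-S- replicate 3, N+S+ replicate 1 or N+S+ replicate 2, and 1 without N-S- replicate 2. It was 8 or 9 without N-S- replicate 1 or N+S+ replicate 3. In all, 17 of the 20 had a log2 fold change below 0, as had 51.8% of all tested genes, with a median of -0.70 and a range of -1.61 to 0.48. At an unadjusted p under 0.05 there were 11 lower and 1 higher genes, against 2.91% and 2.45% of all tested genes. Groups did not overlap in 11 genes in the lower direction and 1 in the higher, against 5.52% and 5.27% of all tested genes.

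The dominant genes did not all move alike. TmLoc019089, which took the highest share over 300 to 500 °Cd, held 5.62%, 7.08% and 5.95% of counts in N-S- grain and 4.99%, 5.71% and 4.27% in N+S+ grain. Its groups overlapped, and its log2 fold change of 0.13 ± 0.21 did not pass the test (edgeR adjusted p = 0.989). TmLoc001192, next in share, held 3.28%, 2.55% and 2.21% in N-S- grain and 4.91%, 5.32% and 3.90% in N+S+ grain. Its groups did not overlap, but -0.996 ± 0.229 on the log2 scale missed the threshold (edgeR adjusted p = 0.145). The 15 dominant genes under 1000 bases, 225 to 903 bases long, took 19.0% ± 1.74 of counts in N-S- libraries and 25.5% ± 3.04 in N+S+ libraries (SD, n = 3 each), with a median log2 fold change of -1.07. The 5 longer ones, of 1381 to 2395 bases, took 9.23% ± 0.170 in N-S- and 9.69% ± 1.29 in N+S+ libraries (SD, n = 3 each), with a median of -0.32. All 5 called genes were among the shorter ones.

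**Figure D3:**
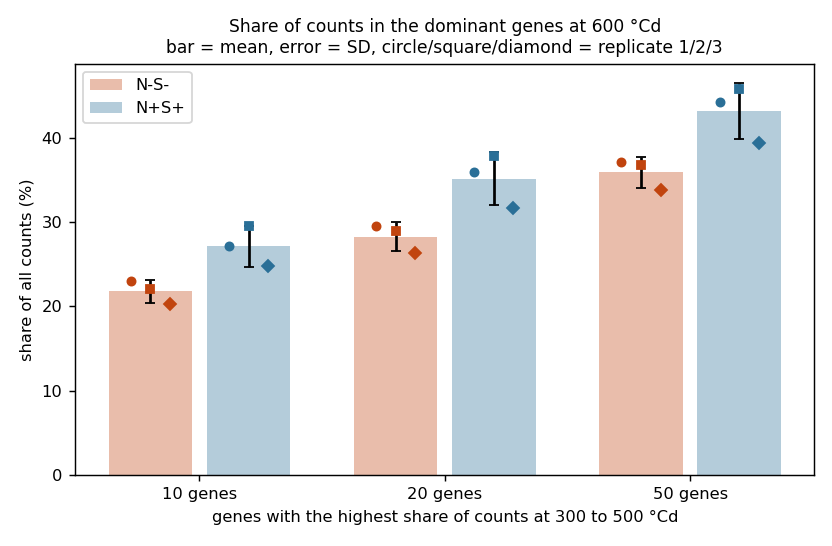
Share of all counts (vertical axis, %) taken at 600 °Cd by the 10, 20 and 50 genes with the highest share at 300 to 500 °Cd, with bars for the mean, error bars for the SD (n = 3) and points for the replicates. For 20 genes the N-S- libraries lie at 26.3% to 29.5% and the N+S+ libraries at 31.7% to 37.9%.

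The RNA of N-S- grain was spread over more genes. It took 181, 230 and 243 genes to reach 50% of the counts in N-S- replicates 1, 2 and 3, against 97, 80 and 162 genes in N+S+ replicates 1, 2 and 3. The groups did not overlap (218 ± 32.7 genes in N-S- and 113 ± 43.3 genes in N+S+ grain, SD, n = 3 each, exact permutation p = 0.1, the smallest possible). For 80% of the counts the numbers were 2247, 2513 and 2455 in N-S- grain and 1989, 1878 and 2245 in N+S+ grain. At least 1 count was seen for 18262 to 18523 genes in N-S- and 16215 to 18166 genes in N+S+ grain. With every library thinned to 2331217 counts the ranges were 18060 to 18478 and 16011 to 18031 genes, and the groups still did not overlap. At 5 or more counts it was not seen, with 14352 ± 134 genes in N-S- and 14447 ± 437 genes in N+S+ grain (SD, n = 3 each, exact permutation p = 0.8). The mean difference in genes with at least 1 count was 1058 with N+S+ replicate 2 and 484.5 without it, and the part of that library in the comparisons above was not tested beyond leaving it out.

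Genes called at 600 °Cd were placed by when they were expressed before. Classes came from N-S- grain at 100 to 500 °Cd, a class being the stage whose mean level was at least 2-fold above the mean of the other stages. Of the 9 lower genes 3 peaked at 300, 5 at 400 and 1 at 500 °Cd, where the classes held 415, 355 and 1303 tested genes. Of the 13 higher genes 7 peaked at 500 °Cd and 6 had no peak, the class that held most tested genes (9080). The classes end at 500 °Cd, so a gene whose level still rose after that stage can be placed there. Among the 1028 and 163 tested genes that peaked at 100 and 200 °Cd 0 were called, beside 0.178% of all genes tested, a share that would give few or no calls in classes of this size. All genes of the 500 °Cd class had a median log2 fold change of 0.08, with 60.6% above 0, and those of the 200 °Cd class a median of -0.20, with 32.5% above 0. Stages 100 to 300 and stages 400 and 500 of N-S- grain were on different lanes, so a lane difference cannot be told apart from these steps. The N-S- libraries of 500 °Cd, which set the 500 °Cd class, were known beforehand to differ more among themselves.

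In N-S- grain from 100 to 300 °Cd, both before and within the period of supply and on 1 lane, 8 of the 9 lower genes and 10 of the 13 higher genes had a higher mean level at 300 °Cd, as had 54.8% of all tested genes. The median change was 6.47 for the lower and 1.17 for the higher genes on the log2(CPM + 1) scale, and 0.12 over all. Across the 12344 genes, the correlation of that early change with the difference at 600 °Cd was close to 0 (Pearson r = -0.01, Spearman rho = 0.02), a description across genes that share the N-S- plants' stages and are not independent replicates.

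Most of the genes called at 600 °Cd had a difference of the same sign earlier, in other libraries. At 300 and at 400 °Cd alike, 20 of the 22 had the same sign as at 600 °Cd, the same 11 higher genes and all 9 lower genes at both. Over all tested genes 52.6% had the same sign at 300 and 54.6% at 400 °Cd. These 2 stages share no library with 600 °Cd, and they were sequenced on lanes 3 and 4. Of the 22, 14 were called in the same direction at 300 °Cd (7 higher and 7 lower), 10 at 400 °Cd (6 and 4), and 9 at all 3 stages (5 and 4). The 14 are 63.6% of the calls at 600 and 4.28% of those at 300 °Cd, and the 10 are 45.5% and 8.40%. The medians of the 9 lower genes were -0.99, -0.75 and -1.38 on the log2 scale at 300, 400 and 600 °Cd, and those of the 13 higher genes 0.53, 1.18 and 1.36.

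Levels of the named genes also differed between stages, which were on different lanes. TmLoc042692 had 31.2 ± 13.0, 32.0 ± 12.1 and 124 ± 42.3 CPM in N-S- grain at 300, 400 and 600 °Cd, and 0.380 ± 0.329, 6.97 ± 0.827 and 19.8 ± 6.65 CPM in N+S+ grain (SD, n = 3 each). TmLoc001563 had 7598 ± 2483, 3750 ± 1654 and 1546 ± 515 CPM in N-S- grain, and 19336 ± 5550, 8843 ± 2797 and 4722 ± 885 CPM in N+S+ grain (SD, n = 3 each). The first gene was higher in N-S- grain at every stage and had its highest level at 600 °Cd, and the second was lower at every stage and had its lowest level there. TmLoc029035 had 1285 ± 85.0, 803 ± 157 and 920 ± 87.4 CPM in N-S- grain, and 1176 ± 42.5, 707 ± 20.9 and 487 ± 42.1 CPM in N+S+ grain (SD, n = 3 each). Its difference was not called at 300 or 400 °Cd (edgeR adjusted p = 0.625 and 0.724).

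**Figure D4:**
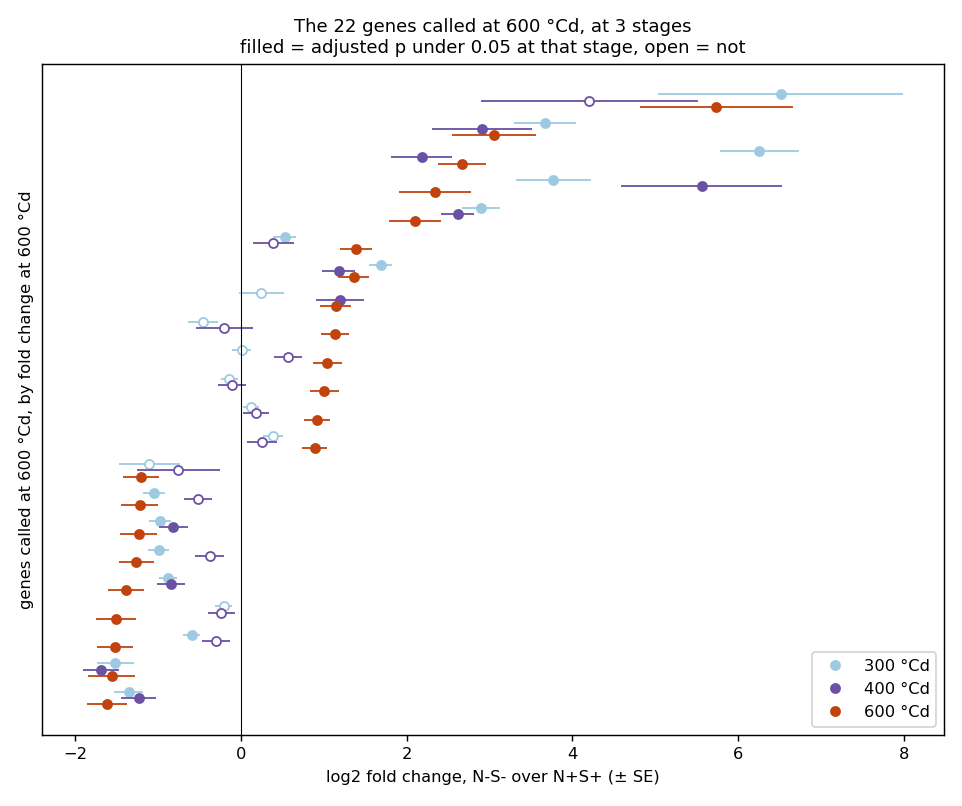
Log2 fold change of N-S- over N+S+ grain (horizontal axis, ± SE) at 300, 400 and 600 °Cd for the 22 genes called at 600 °Cd, 1 gene to a line in order of the change at 600 °Cd, with filled points where the adjusted p was under 0.05 at that stage. All 9 lower genes lie left of 0 at each stage, and 11 of the 13 higher genes lie right of 0 at each stage.

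More genes were called at the earlier stages. There were 327 of 12318 at 300 °Cd (2.65%; 186 higher and 141 lower) and 119 of 12337 at 400 °Cd (0.965%; 59 higher and 60 lower), by edgeR with each stage fitted alone on the genes tested at 600 °Cd. The spread between replicates differed too, with a biological coefficient of variation of 0.123 at 300, 0.213 at 400 and 0.231 at 600 °Cd. A fit to the 18 libraries of the 3 stages, with 1 estimate of the spread, tested 14847 genes after its own filter and scaling. It called 74, 154 and 88 genes at 300, 400 and 600 °Cd, so the order of these counts depends on the fit. Leaving out N-S- replicate 1 or 2 or N+S+ replicate 3 at 300 °Cd gave 171, 184 or 203 calls. Leaving out N-S- replicate 1, 2 or 3 at 400 °Cd gave 64, 227 or 60.

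Whether the response had changed by 600 °Cd was tested directly, as the difference at 600 minus the mean of the differences at 300 and 400 °Cd. It passed in 32 of 14847 genes (0.216%; edgeR interaction test), 20 more positive and 12 more negative at 600 °Cd, and 1112 had an unadjusted p under 0.05. With replicate 1 left out of every group 2 genes passed, and with replicate 3 left out 20. Genes of both directions were chosen by this contrast in the same libraries, so the run of their medians owes in part to the choice. The 20 positive genes were mostly lower in N-S- grain at 300 and 400 °Cd and differed less at 600 °Cd. Their median log2 fold change was -3.06 at 300, -2.51 at 400 and -0.15 at 600 °Cd, and -2.97 at 300 °Cd when the 2 genes with an empty group were put at their bound. N-S- grain was lower in 19 of the 20 at 300 °Cd and in 11 at 600 °Cd, where 15 differed by less than 2-fold. Fitted values of genes with an empty group, 2 each at 300 and 400 °Cd, depend on how 0 counts are treated. The mean level was higher at 600 than at 400 °Cd in both groups in 14 of the 20.

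TmLoc019180 is one of them. It had 0, 0.290 and 0 CPM in N-S- replicates 1, 2 and 3 at 300 °Cd, 0, 0.794 and 0.717 at 400, and 152, 90.6 and 74.4 at 600 °Cd. In N+S+ grain it had 8.38, 2.81 and 7.78 CPM at 300, 20.6, 39.1 and 32.2 at 400, and 215, 136 and 214 at 600 °Cd. The groups stood apart at the first 2 of these stages and overlapped at 600 °Cd. From summed counts the gene was 69.4-fold lower in N-S- grain at 300 °Cd (exact 95% interval 12.1 to 2783), 66.9-fold lower at 400 °Cd (18.3 to 557) and 1.79-fold lower at 600 °Cd (1.64 to 1.95), where the intervals cover counting error only. The interaction had an edgeR adjusted p of 0.000135. TmLoc020982 had 4 counts in N-S- libraries and 107 in N+S+ libraries at 300 °Cd, 0 against 101 at 400 °Cd and 1050 against 2188 at 600 °Cd. Taking 3 counts for the empty group as a whole, it was 24.5-fold lower at 400 °Cd, where the exact 95% interval began at 19.6-fold. At 600 °Cd it was 1.97-fold lower (edgeR adjusted p of the interaction 0.00649, and 0.396 with replicate 1 left out of every group).

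The 12 negative genes differed in either direction at 300 and 400 °Cd and had a lower level in N-S- grain at 600 °Cd. At 300 °Cd 7 of the 12 were below 0 and 2 were called, and at 400 °Cd 4 were below 0 and 1 was called. Of all tested genes 2.65% were called at 300 and 0.965% at 400 °Cd. Their median log2 fold change was -0.03 at 300, 0.23 at 400 and -1.46 at 600 °Cd, and all 12 were below 0 at 600 °Cd. With that stage fitted alone, 2 of the 12 were called at 600 °Cd, beside 0.178% of all tested genes. TmLoc033884 and TmLoc021763 were not among these calls. In 11 of the 12 the mean level was lower at 600 than at 400 °Cd in both groups. TmLoc033884 had 89.7, 70.8 and 88.8 CPM in N-S- grain at 300 °Cd and 1.50, 1.60 and 1.04 CPM at 600 °Cd. In N+S+ grain it had 86.7, 83.3 and 88.8 CPM at 300 °Cd and 7.39, 6.61 and 7.18 CPM at 600 °Cd. Both groups were far lower at 600 °Cd, and there every N-S- library lay below every N+S+ library (interaction -2.57 ± 0.42, edgeR adjusted p = 0.00246). TmLoc021763 had a mean of 3.57 CPM in N-S- and 12.1 CPM in N+S+ grain at 600 °Cd, and 93.2 and 95.4 CPM at 300 °Cd (interaction -1.91 ± 0.31, edgeR adjusted p = 0.00246). At 400 °Cd N-S- grain had the higher mean in both genes, which adds to the size of both interactions. The means were 61.9 against 42.4 CPM for TmLoc033884 and 76.0 against 58.0 CPM for TmLoc021763. Without replicate 1 or 3 throughout, the edgeR adjusted p was 0.181 or 0.120 for TmLoc033884 and 0.104 or 0.0723 for TmLoc021763. Of the 32 genes 4 were among the 22 called at 600 °Cd, TmLoc029035 and TmLoc029755 in the positive direction and TmLoc000245 and TmLoc042749 in the negative, the last 3 named here for completeness after their values were seen.

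**Figure D5:**
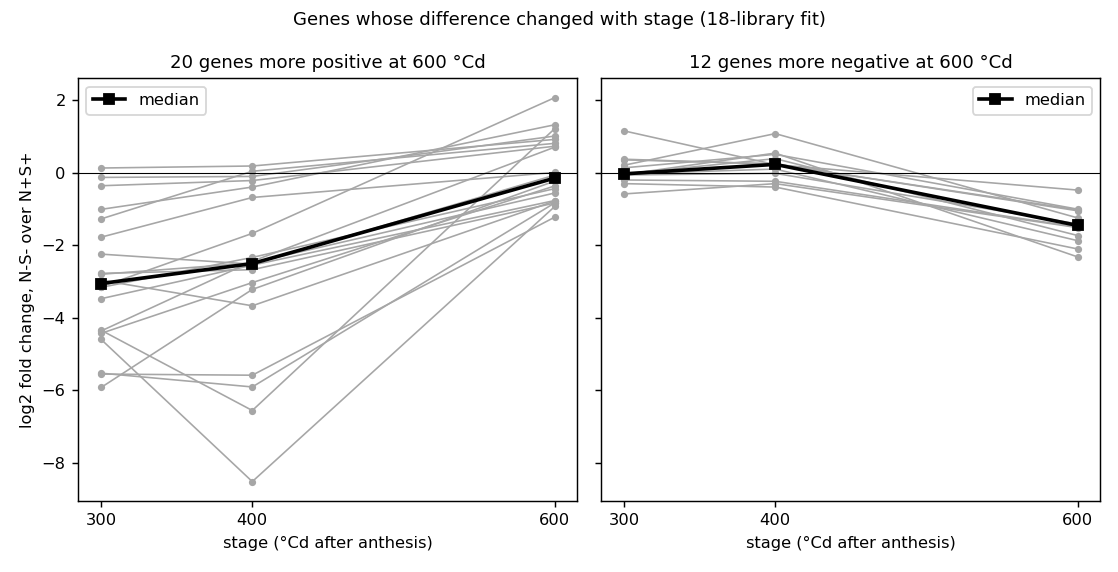
Log2 fold change of N-S- over N+S+ grain (vertical axis) at 300, 400 and 600 °Cd (horizontal axis) for the 20 genes with a more positive (left) and the 12 with a more negative difference at 600 °Cd (right), 1 grey line per gene and the median in black. The left median runs through -3.06, -2.51 and -0.15, the right through -0.03, 0.23 and -1.46, in genes chosen by this difference in the same libraries.

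Grain of the other treatments at 600 °Cd, N+S- (6 mM N without S) and N-S+ (0.5 mM N with 2 mM S), can be set beside these groups for some genes. The copies of these treatments' tables used here stop early, with 18308 genes kept of N+S- and 8649 of N-S+, so the genes set side by side are those before the break. Levels were scaled on these genes only, and they are higher than those above. Genes given in 4 treatments were scaled on the genes before the break in the N-S+ copy, and genes given in 3 on those of the N+S- copy. Levels cannot be compared between these 2 sets of genes. These comparisons share libraries, and no test was made between them. TmLoc001563 had 4804 ± 1558 CPM in N-S-, 980 ± 274 in N+S-, 25856 ± 8101 in N-S+ and 14613 ± 2976 CPM in N+S+ grain (SD, n = 3 each). The groups without S were the lower ones, N+S- the lowest, and none of the 4 overlapped with another except N-S+ with N+S+. TmLoc010460 had 76.6 ± 21.3 CPM in N-S-, 217 ± 48.2 in N+S-, 21.6 ± 4.36 in N-S+ and 9.09 ± 6.93 CPM in N+S+ grain (SD, n = 3 each). Here N+S- grain was the highest and N+S+ grain the lowest, and no group overlapped with another. TmLoc025590, which lies past the break in the N-S+ copy, had 21032 ± 5419 CPM in N-S-, 5304 ± 767 in N+S- and 48963 ± 9128 CPM in N+S+ grain (SD, n = 3 each), again with N+S- below N-S-. TmLoc017122 had 8061 ± 1884 CPM in N-S-, 2606 ± 410 in N+S- and 18925 ± 4511 CPM in N+S+ grain (SD, n = 3 each), in the same order and without overlap. These 4 genes do not stand for all. Of the 13 called genes in the N+S- copy, 5 had a mean in N+S- grain that lay between the means of N-S- and N+S+ grain, and they are given here after their values were seen. TmLoc000245 had 133 ± 35.5 CPM in N-S-, 332 ± 95.8 in N+S-, 179 ± 81.6 in N-S+ and 373 ± 104 CPM in N+S+ grain, with N+S- close to N+S+ grain. TmLoc012104 had 222 ± 12.4 CPM in N-S-, 189 ± 13.8 in N+S-, 144 ± 24.7 in N-S+ and 84.5 ± 12.2 CPM in N+S+ grain. TmLoc013400 had 30.5 ± 1.56 CPM in N-S-, 69.4 ± 22.4 in N+S- and 70.4 ± 3.17 CPM in N+S+ grain. TmLoc019953 had 571 ± 106 CPM in N-S-, 316 ± 18.5 in N+S- and 278 ± 33.1 CPM in N+S+ grain. TmLoc013398 had 167 ± 28.7 CPM in N-S-, 96.5 ± 7.61 in N+S- and 75.9 ± 4.10 CPM in N+S+ grain (SD, n = 3 each for all 5). N+S- grain overlapped with N+S+ grain for TmLoc000245, TmLoc013400 and TmLoc019953.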

How the data were processed

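Strand-specific libraries of polyadenylated RNA were read as pairs of 125 bases, per the labels' protocols. The authors deposited 1 table for each treatment. Per the file headers it gives each gene's length and, for every library, its raw count beside a normalized one. CASAVA 1.8.4, BWA 0.7.12-r1039 and edgeR without a version are named in the submitters' processing notes, while the sources used here give neither the reference nor how reads were counted. The deposited normalized signal was a constant multiple of the raw count in each library, set within each table, and was not used. The copies of the other treatments' tables used here stop early, after 18308 genes of N+S- and 8649 complete genes of N-S+.

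Raw counts of the 6 libraries were filtered with filterByExpr (12344 of 32047 genes kept), scaled together by TMM and fitted with edgeR 4.0.16 (R 4.3.3). Benjamini-Hochberg adjustment covered all genes tested, with calls under 0.05, and standard errors are the log2 fold change over the root of F. The interaction used 18 libraries of 300, 400 and 600 °Cd, since the treatments of 500 °Cd were on different lanes. The fits were tested on counts simulated from the distribution they assume. Such counts cannot show how far the calls in these data rest on single libraries. No replicates were identical, and the closest pair had a chi-square of 5.68 per degree of freedom. Same-numbered libraries of the 2 groups had correlations of deviations of -0.07, 0.17 and 0.16 and were not treated as pairs. Between libraries of different number these correlations ran from -0.30 to 0.19.

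Genes were named by rule: called, at a mean of at least 5 CPM and without overlap, the 2 highest and 2 lowest by fold change and by difference in level, the same number by interaction, and those with the most counts where a group had none. The comparison, lists and tests were chosen with earlier results of these data known. Planned lists by function and cell type could not be used without gene names. Alternatives were DESeq2 1.42.0 and its size factors, scaling without the dominant genes, other filters, other sets of libraries or genes, a replicate block, thinning and leaving out each library.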

Additional observations from a re-analysis of the deposited data

Results flagged for a closer look

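The difference between N-S- and N+S+ grain depended on stage in 32 genes by the edgeR interaction test of 600 against 300 and 400 °Cd. TmLoc019180 had an interaction of 4.89 ± 0.65 on the log2 scale (edgeR adjusted p = 0.000135) and TmLoc020982 of 5.63 ± 1.02 (edgeR adjusted p = 0.00649), a fitted value that depends on how the 0 counts of N-S- grain at 400 °Cd are treated. TmLoc033884 had -2.57 ± 0.42 and TmLoc021763 -1.91 ± 0.31 (edgeR adjusted p = 0.00246 for each). What lies behind these differences was not tested.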

How the results depend on the processing

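At 600 °Cd, against 22 calls, edgeR gave 22 with DESeq2 size factors and 22 with scaling without the dominant genes, all of them the same genes, and 24 on thinned counts. DESeq2 gave 58 (20 of the 22 among them), no filter 126, the replicate block 86, a fit to 300, 400 and 600 °Cd 88 (20 of the 22), and a joint fit to 30 libraries gave 51 (16 of the 22). Testing only the genes before the break in the N-S+ copy gave 4. Leaving out a library gave 1 to 64. Of the dominant genes, 5 called lower became 8 with DESeq2, 10 without a filter, with the replicate block and with the fit to 3 stages, 1 among the 9 before that break, and 0 to 9 without a library. The 32 interaction genes became 62 with DESeq2, 105 without a filter, 60 with the replicate block, 17 with the fit to 30 libraries, and 2 to 28 without a replicate. At 300 °Cd 327 calls became 74 in the fit to 3 stages and 171 to 288 without a library, and at 400 °Cd 119 became 246 with the replicate block and 60 to 227 without a library. The cause was not tested. The difference in dominant share was -8.65 to -5.57 percentage points without a library and -6.91 within replicate numbers (exact permutation p = 0.25, the smallest of 8 arrangements). That in genes holding 50% of counts was 88.5 to 129.5. That in genes detected was 484.5 to 1460 without a library, and it turned to -95.0 at a minimum of 5 counts. The 8 genes named at 600 °Cd kept their direction in every setting that tested them. The pairing by replicate number rests on the numbers alone.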

Other observations

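More genes were seen throughout N-S- and never in N+S+ grain than the other way round. Among all 32047 genes, 141 had a count in all 3 N-S- libraries and none in N+S+ grain, and 16 had a count in all 3 N+S+ libraries and none in N-S- grain. The shallowest library was an N-S- one, and at equal depth the numbers were 149 and 11. Without N+S+ replicate 2, the library with the fewest genes, they were 200 and 94. Without N+S+ replicate 1 they were 371 and 39, and without N+S+ replicate 3 they were 315 and 63. Leaving out an N+S+ library loosens the rule in both directions, so these numbers cannot be set directly against 141 and 16. With at least 10 summed counts in one group and none in the other, whatever the number of libraries, the numbers were close, at 30 for N-S- and 29 for N+S+ grain. No test was made of these numbers.

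TmLoc012961 had 9, 9 and 6 counts in N-S- replicates 1, 2 and 3 and none in N+S+ grain. Taking 3 counts for the empty group as a whole, it was 8.48-fold higher. This fold and those below cover neither the spread between libraries nor the counting error of the other group. TmLoc016440 had 2, 1 and 13 counts in N-S- replicates and none in N+S+ grain. On the same reckoning it was 5.66-fold higher, and most of its counts came from replicate 3. In the other direction, TmLoc017917 had none in N-S- grain and 0, 22 and 0 counts in N+S+ replicates 1, 2 and 3. It was 6.91-fold lower on that reckoning, but all of its counts came from replicate 2. TmLoc006308 had none in N-S- grain and 0, 14 and 4 counts in N+S+ grain, 5.66-fold lower, with 14 of the 18 counts from replicate 2. All 4 were too low for the filter and were not tested.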
